A study of Mus musculus with 8 samples.

Results

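Matrix proteases and their inhibitors were followed as a set of 10 genes in granulosa cells of the mouse ovary, which line the follicle and nourish its oocyte. The set held the plasminogen activators Plat and Plau with the serpin Serpine2, the metalloproteinases Mmp2 and Mmp14, the protease Adamts1, the metalloproteinase inhibitors Timp1, Timp2 and Timp3, and the cysteine protease Ctsl. They were chosen by gene symbol, and all 10 were found among the 23235 symbols of the deposited table and passed the filter on low values, as did 13688 genes in all. RNA came from female C57BL/6 animals that carried a CNOT6/6L knockout (KO) or were wild type (WT), and cells were taken 44 h after the gonadotropin PMSG, which acts much as FSH does, or without treatment (0 h). The 4 groups were KO at 44 h, WT at 44 h, KO at 0 h and WT at 0 h, with 2 libraries each. CNOT6 and CNOT6L are deadenylase subunits of the CCR4-NOT complex, which shortens poly(A) tails of mRNA. The labels also write Cnot66l DKO for the mutant cells and give no age, PMSG dose, driver of the deletion or number of animals, and p-values therefore reflect the variation among these libraries alone, part of which may be technical.

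Growth and rupture of a follicle require remodelling of its extracellular matrix. The plasminogen activators tPA (Plat) and uPA (Plau) convert plasminogen to plasmin, and protease nexin-1 (Serpine2) inhibits both activators and plasmin. MMP14 is a membrane-anchored metalloproteinase that activates the gelatinase pro-MMP2 with TIMP2 as an adaptor, while TIMP2 in excess blocks this activation. ADAMTS1 cleaves versican and is required for normal ovulation in mice, and cathepsin L (Ctsl) is a lysosomal protease that can also be secreted.

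Values are FPKM, a read-out that allows for transcript length and library size, so levels can be set side by side between genes. Total FPKM ranged from 675557 to 753216 per library and the relative depth, read from the steps between low values, from 0.904 to 1.25 of the median library. The granulosa markers Foxl2 (14.1 to 25.2 FPKM) and Fshr (33.6 to 155 FPKM) were present in every library. Cnot6 was 26.7 and 17.4 FPKM in KO and 26.1 and 26.9 FPKM in WT at 44 h, beside 11.8 and 12 FPKM in KO and 29.1 and 18.4 FPKM in WT at 0 h. Cnot6l was 2.01 and 1.61 FPKM in KO and 4.2 and 2.63 FPKM in WT at 44 h, beside 4.69 and 1.97 FPKM in KO and 6.11 and 7.07 FPKM in WT at 0 h. Cnot6l was thus below WT in every KO library at the same time point, whereas Cnot6 lay within the WT range in what is labelled KO replicate 1 at 44 h. Which bases were deleted is not given, so reads outside the deleted part may remain. That library also stood apart from its replicate. With 1 added to each FPKM, 1527 of 13688 genes were at least 2-fold apart in the KO pair at 44 h, against 382 in the WT pair. On that scale 5 of the 10 genes were at least 2-fold apart in the KO pair at 44 h and 3 in the WT pair. The count was 0 in either pair at 0 h, although Plau in KO was 2.93 and 1.09 FPKM, where the added 1 narrows the ratio. Genes known to rise as follicles mature were also low in KO replicate 1 at 44 h. At that time Lhcgr, the LH receptor, was 18.8 and 261 FPKM in KO and 299 and 308 FPKM in WT. The steroidogenic enzyme Cyp11a1 was 129 and 2508 FPKM in KO and 4451 and 4339 FPKM in WT. Both genes were named after their values were seen, and whether the library differs in response, handling or labelling was not tested. For the 10 genes, values without it are given where they change a call and in most cases where they differ by over 1.5 times. For other genes they are given for some only, so a gene printed without them may still change its call.

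The data show 3 patterns. Adamts1, Timp1 and Timp3 were several-fold higher 44 h after PMSG in both WT libraries and in KO replicate 2, and near the untreated level in KO replicate 1. Plat was lower at 44 h in both genotypes, while Serpine2, the most abundant of the 10 genes in 7 of 8 libraries, was higher. In untreated cells, KO libraries lay below both WT libraries for Serpine2, Mmp14, Adamts1, Timp2, Timp3 and Ctsl. The same was true of 19.1% of all genes tested. With all 8 libraries, limma called 0 of the 10 genes in any comparison at an adjusted p under 0.05, a threshold few genes of the table passed. The called share of all genes tested was 0.139% for 44 h against 0 h in KO, 0.0804% for 44 h against 0 h in WT, 0.0219% for KO against WT at 44 h, 0.0365% at 0 h and 0.0438% for the difference between the genotypes in the PMSG change. At an unadjusted p under 0.05 the members passing numbered 4, 4, 1, 3 and 0 in that order, beside 21.1%, 24.1%, 9.79%, 9.69% and 1.82% of all genes. Leaving out KO replicate 1 at 44 h, limma called Adamts1, Timp1 and Timp3 higher at 44 h in KO and in WT. In any fit without a KO library at 44 h, that group is 1 library, assumed to vary like the libraries of the other groups, which supply the SE. The called share of all genes was then 8.99% in KO (4.51% higher) and 10% in WT (5.12% higher).

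**Figure D1:**
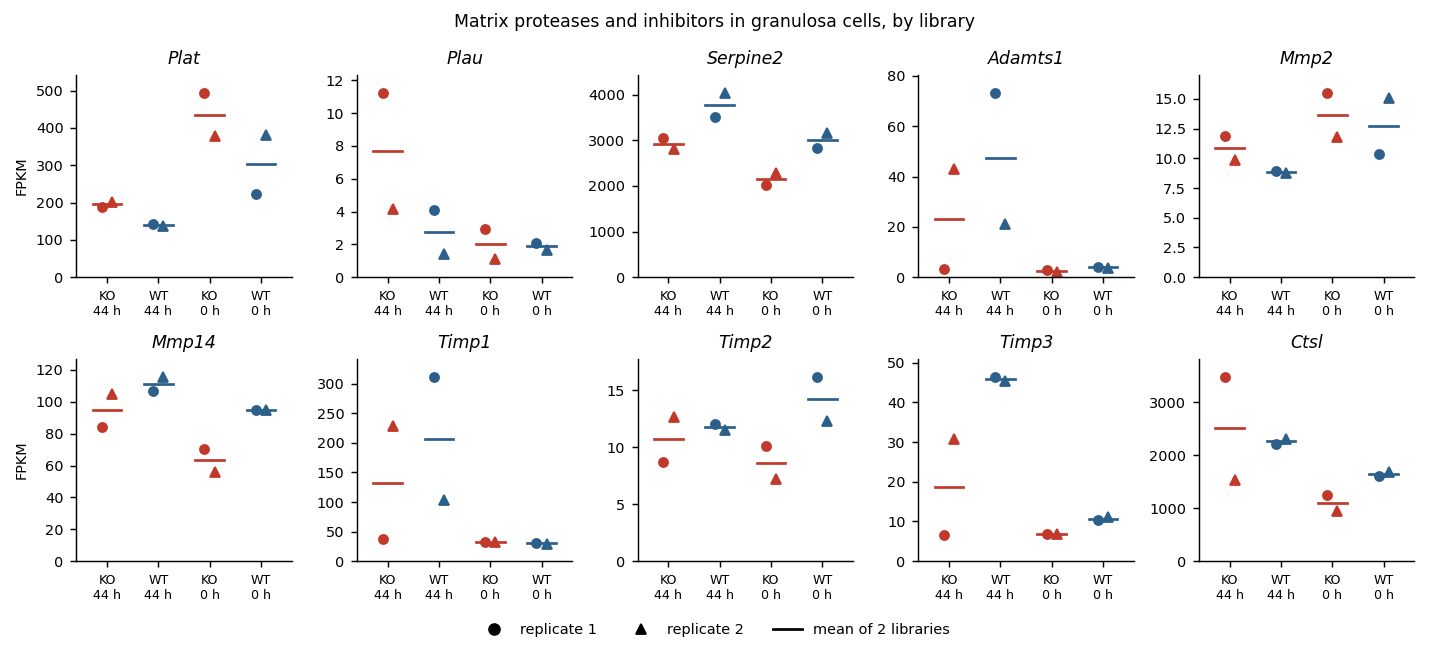
FPKM of each of the 10 genes (vertical axis, from 0) in the 8 libraries, grouped by genotype and time; circles are replicate 1, triangles replicate 2 and lines the mean of 2 libraries. In Adamts1, Timp1 and Timp3 the circle for KO at 44 h lies near the 0 h libraries, while the triangle lies well above them.

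Among the plasminogen activators, Plat was by far the more abundant. In replicate order, Plat was 188 and 203 FPKM at 44 h and 494 and 377 FPKM at 0 h in KO. The WT libraries held 143 and 136 FPKM at 44 h and 223 and 382 FPKM at 0 h. In each genotype both treated libraries lay below both untreated ones, which was true of 34.1% of genes in KO and 40.6% in WT. The log2 change was -1.14 in KO (SE 0.265, limma adjusted p = 0.113) and -1.06 in WT (SE 0.265, adjusted p = 0.109), and the difference between these changes was -0.08 (SE 0.375, adjusted p = 1.00). At 44 h both KO libraries lay above both WT libraries (log2 difference 0.48, SE 0.265, adjusted p = 0.571), and at 0 h they overlapped, with KO replicate 2 below WT replicate 2 (0.56, SE 0.265, adjusted p = 0.563).

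Oocyte markers moved with Plat across the libraries, and the mouse oocyte itself stores Plat mRNA, which is translated when meiosis resumes. The summed FPKM of 17 oocyte markers, all 17 above 0 in every library, was 3188 and 1889 in KO and 1287 and 1327 in WT at 44 h. Without treatment it was 6743 and 5859 in KO and 2377 and 4067 in WT. As with Plat, the sums at 44 h lay below those at 0 h in each genotype, and the KO sums lay above the WT sums at 44 h. At 0 h the KO sums were also above the WT sums, whereas Plat overlapped. Across the 8 libraries, which differ in time and genotype, Pearson r with the oocyte sum was 0.942 for Plat and 0.892 for Mmp2. It was -0.843 for Serpine2, -0.879 for Mmp14, -0.853 for Adamts1, -0.784 for Timp1 and -0.893 for Timp3. Weaker values were -0.564 for Ctsl, -0.546 for Timp2 and -0.14 for Plau. The part of oocyte RNA in these values was not tested. In such bulk samples fewer cells of a type and less RNA per cell cannot be told apart.

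Plau was a low-level gene throughout. In KO it was 11.2 and 4.15 FPKM at 44 h, against 2.93 and 1.09 FPKM at 0 h, and in WT it was 4.1 and 1.38 FPKM at 44 h, against 2.06 and 1.68 FPKM at 0 h. Its 11.2 FPKM in KO replicate 1 at 44 h was the highest of the 8 values, and the WT libraries at both times overlapped. From 0 h to 44 h the log2 change came to 1.47 in KO (SE 0.536, limma adjusted p = 0.183), 0.85 without that library (SE 0.53, adjusted p = 0.339), and 0.28 in WT (SE 0.536, adjusted p = 0.779). At 44 h KO lay 1.19 above WT (SE 0.536, adjusted p = 0.529), or 0.56 above without replicate 1 (SE 0.53, adjusted p = 0.856). At 0 h the KO and WT means of log2(FPKM + 1) were equal to 2 decimals (difference 0, SE 0.536, adjusted p = 1).

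Serpine2, the inhibitor of both activators, ranked between 6 and 18 among the 23235 genes by FPKM in the 8 libraries. It was 3050 and 2799 FPKM in KO and 3520 and 4039 FPKM in WT at 44 h. At 0 h it was 2026 and 2293 FPKM in KO and 2830 and 3168 FPKM in WT. The groups did not overlap in any of these 4 comparisons. KO was below WT at each time, as were 15.1% of all genes at 44 h and 19.1% at 0 h. Values at 44 h were above those at 0 h in each genotype, as were 14.3% of all genes in KO and 22.5% in WT. KO against WT gave a log2 difference of -0.37 at 44 h (SE 0.199, limma adjusted p = 0.564) and -0.47 at 0 h (SE 0.199, adjusted p = 0.513). The log2 change to 44 h was 0.44 in KO (SE 0.199, adjusted p = 0.264) and 0.33 in WT (SE 0.199, adjusted p = 0.345), neither of them called. Without KO replicate 1 at 44 h the genotype difference at 44 h was -0.43 and the change in KO 0.38.

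The level of Plat relative to its inhibitor does not depend on how a library is scaled. Plat stood at 6.18% and 7.25% of the Serpine2 FPKM in KO and at 4.06% and 3.38% in WT at 44 h. At 0 h it stood at 24.4% and 16.5% in KO and at 7.88% and 12.1% in WT. KO ratios were thus above WT ratios in all libraries at each time, and ratios at 44 h were below those at 0 h within each genotype. These ratios are given as values, with no test. The oocyte sums given with Plat were likewise highest in KO at 0 h and lowest in WT at 44 h, and their part in the ratios was not tested.

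**Figure D2:**
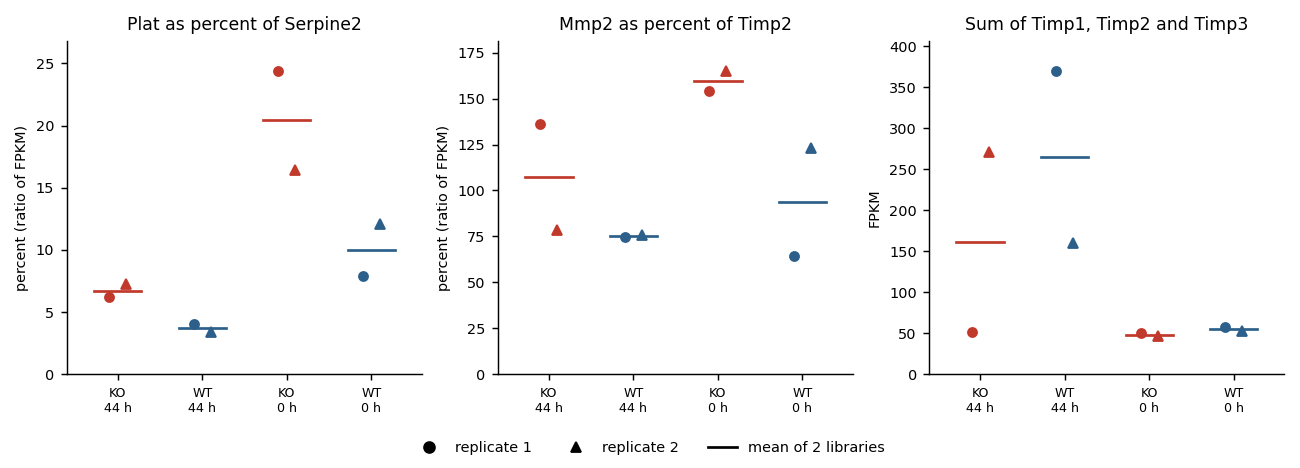
Ratios of FPKM within a library (percent, left and middle) and the summed FPKM of Timp1, Timp2 and Timp3 (right), by genotype and time; circles are replicate 1, triangles replicate 2 and lines the mean of 2 libraries. Plat as a percent of Serpine2 is highest in KO at 0 h (24.4% and 16.5%) and lowest in WT at 44 h (4.06% and 3.38%).

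Of the metalloproteinases, Mmp14 was several-fold more abundant than Mmp2. Mmp14 was 84.2 and 105 FPKM in KO and 106 and 116 FPKM in WT at 44 h, beside 70.6 and 56.1 FPKM in KO and 94.9 and 94.5 FPKM in WT at 0 h. Its KO libraries were below both WT libraries at each time, although KO replicate 2 at 44 h was within 2 FPKM of WT replicate 1. The log2 difference was -0.24 at 44 h (SE 0.176, limma adjusted p = 0.657), or -0.08 without KO replicate 1 (SE 0.183, adjusted p = 0.949), and -0.58 at 0 h (SE 0.176, adjusted p = 0.412). Both KO libraries at 44 h lay above both at 0 h, with a log2 change of 0.57 (SE 0.176, adjusted p = 0.146), and WT showed 0.23 (SE 0.176, adjusted p = 0.464).

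Mmp2, which is made chiefly by stromal cells in many tissues, was low. It was 11.9 and 9.89 FPKM in KO and 8.96 and 8.74 FPKM in WT at 44 h. At 0 h it was 15.5 and 11.8 FPKM in KO and 10.4 and 15.1 FPKM in WT. WT libraries at 44 h were below those at 0 h, and the KO libraries at the 2 times overlapped. The log2 change was -0.30 in KO (SE 0.233, limma adjusted p = 0.495) and -0.46 in WT (SE 0.233, adjusted p = 0.275). KO lay above WT by 0.27 at 44 h (SE 0.233, adjusted p = 0.699), or by 0.15 without KO replicate 1 (SE 0.279, adjusted p = 0.934), and by 0.11 at 0 h (SE 0.233, adjusted p = 0.94), and at 0 h the libraries overlapped. Summed theca and stroma markers, all 12 above 0 in every library, did not share this direction, unlike the oocyte sums given with Plat. They were 248 and 363 FPKM at 44 h and 146 and 107 FPKM at 0 h in KO. In WT they were 326 and 302 FPKM at 44 h and 112 and 121 FPKM at 0 h. Members of that list differed. Cyp17a1 was 81.9 and 124.5 FPKM in KO and 137 and 97.7 FPKM in WT at 44 h. At 0 h Cyp17a1 was 2.28 and 9.29 FPKM in KO and 21.65 and 1.95 FPKM in WT. Dcn was also higher at 44 h in both genotypes. Col1a1 was higher in WT but overlapped in KO, at 6.85 and 18.7 FPKM at 44 h and 17 and 11 FPKM at 0 h. The part of stromal or oocyte RNA in Mmp2 was not tested.

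Adamts1, Timp1 and Timp3 had the widest ranges over the 8 libraries, 4.53, 3.35 and 2.66 on the log2(FPKM + 1) scale. Across all 8 libraries Adamts1 had a Pearson r of 0.986 with Timp1 and 0.944 with Timp3, a description of 8 points that include both treated and untreated groups. As these genes moved together, the 250 bases before each RefSeq start site are shown (build GRCm38.p6, whereas mm9 is the build named for the expression table). They lie at chr16:85803114-85803363 on the minus strand for Adamts1, chrX:20869916-20870165 on the plus strand for Timp1 and chr10:86300162-86300411 on the plus strand for Timp3. Capitals mark the matches found, which are GC boxes (GGGCGG, or CCGCCC on the other strand) and, in Timp1, an inverted CCAAT box.
Adamts1: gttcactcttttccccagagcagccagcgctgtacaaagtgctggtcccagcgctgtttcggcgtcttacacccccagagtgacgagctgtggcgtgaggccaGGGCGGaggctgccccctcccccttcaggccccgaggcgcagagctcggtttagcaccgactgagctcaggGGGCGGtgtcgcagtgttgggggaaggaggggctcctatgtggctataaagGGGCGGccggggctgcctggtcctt
Timp1: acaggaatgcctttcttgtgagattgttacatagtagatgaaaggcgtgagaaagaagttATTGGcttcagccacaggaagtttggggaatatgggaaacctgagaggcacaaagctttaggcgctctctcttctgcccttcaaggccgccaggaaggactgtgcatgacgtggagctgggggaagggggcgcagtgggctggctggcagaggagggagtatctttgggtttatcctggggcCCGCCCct
Timp3: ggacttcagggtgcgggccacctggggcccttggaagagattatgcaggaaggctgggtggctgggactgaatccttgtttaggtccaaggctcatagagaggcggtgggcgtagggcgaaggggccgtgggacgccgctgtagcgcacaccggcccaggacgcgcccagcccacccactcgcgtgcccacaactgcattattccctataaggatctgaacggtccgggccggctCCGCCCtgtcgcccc
Searched on both strands were the cAMP response element TGACGTCA, the AP-1 element TGANTCA, the NR5A element CAAGGTCA, the GC box GGGCGG and CCAAT, and no matches overlapped within these 3 windows. A GC box was in all 3, with 3 matches in Adamts1 and 1 each in Timp1 and Timp3, and it was in 32.7% of all 32851 windows of the same length. The CCAAT box, in 33.8% of all windows, was found only in Timp1 among the 3. The first 3 elements, held by 1.55%, 6.75% and 1.33% of all windows, were not in these letters. Over the 7 members with a window in the table, 6 held a GC box and 3 a CCAAT box.

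ADAMTS1 is the versican-cleaving protease of the set. Adamts1 was 3.22 and 43 FPKM at 44 h and 2.68 and 2.22 FPKM at 0 h in KO, and 73.3 and 21.2 FPKM at 44 h and 4.01 and 3.81 FPKM at 0 h in WT. All treated libraries were above the untreated ones of their genotype, but KO replicate 1 at 44 h exceeded KO at 0 h by less than 1 FPKM and lay below both untreated WT libraries. On the log2 scale the change to 44 h was 3.05 in WT (SE 1.02, limma adjusted p = 0.144) and 1.98 in KO (SE 1.02, adjusted p = 0.315). With KO replicate 1 at 44 h left out, limma called it higher in WT (3.05, SE 0.502, adjusted p = 0.0199) and in KO (3.68, SE 0.615, adjusted p = 0.0211). At 44 h KO differed from WT by -1.58 (SE 1.02, adjusted p = 0.617), and by 0.11 without that library (SE 0.615, adjusted p = 0.982). At 0 h both KO libraries were below both WT libraries (-0.51, SE 1.02, adjusted p = 0.934). Pgr, the progesterone receptor through which LH induces Adamts1 in mouse granulosa cells, was at most 0.174 FPKM in any library; it was named outside the rule for named genes.

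Timp1, an inhibitor of most metalloproteinases, followed Adamts1 at a higher level. It was 36.9 and 228 FPKM at 44 h and 33.2 and 32.7 FPKM at 0 h in KO, and 311 and 103 FPKM at 44 h and 30.8 and 29.7 FPKM at 0 h in WT. The 4 untreated libraries lay within 4 FPKM of each other, and the library labelled KO replicate 1 at 44 h exceeded them by less than 8 FPKM. The log2 change was 2.53 in WT (SE 0.816, limma adjusted p = 0.137) and 1.46 in KO (SE 0.816, adjusted p = 0.35). Without that library limma called both, at 2.53 in WT (SE 0.447, adjusted p = 0.0244) and 2.75 in KO (SE 0.548, adjusted p = 0.0327). KO differed from WT at 44 h by -0.96 (SE 0.816, adjusted p = 0.696), or by 0.34 without replicate 1 (SE 0.548, adjusted p = 0.922), and at 0 h by 0.12 (SE 0.816, adjusted p = 0.985).

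Timp3, the TIMP that binds to the matrix, was the most uniform of the 3 in WT. It was 6.48 and 30.8 FPKM at 44 h and 6.79 and 6.92 FPKM at 0 h in KO, and 46.4 and 45.3 FPKM at 44 h and 10.3 and 11.1 FPKM at 0 h in WT. KO was below WT at each time with no overlap, and KO replicate 1 at 44 h was below every other library. PMSG treatment went with a log2 change of 2.0 in WT (SE 0.573, limma adjusted p = 0.119) and 0.97 in KO (SE 0.573, adjusted p = 0.372). Without that library limma called 2.0 in WT (SE 0.145, adjusted p = 0.00126) and 2.02 in KO (SE 0.177, adjusted p = 0.00377), and the difference of these changes was 0.01 (SE 0.229, adjusted p = 1.00). KO differed from WT at 44 h by -1.60 (SE 0.573, adjusted p = 0.497), or by -0.56 without replicate 1 (SE 0.177, adjusted p = 0.586). At 0 h the difference was -0.57 (SE 0.573, adjusted p = 0.837). With only the 4 WT libraries in the fit, where limma called 6.9% of all genes, it called Adamts1, Timp1 and Timp3 again and no other member. Timp1 and Timp3 lie inside the synapsin genes Syn1 and Syn3 on the opposite strand, and in the newer annotation exons of Timp3 and Syn3 overlap. Whether counting used strand is not given in the sources used here, and Syn1 and Syn3 were at most 0.602 and 0.529 FPKM.

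**Figure D3:**
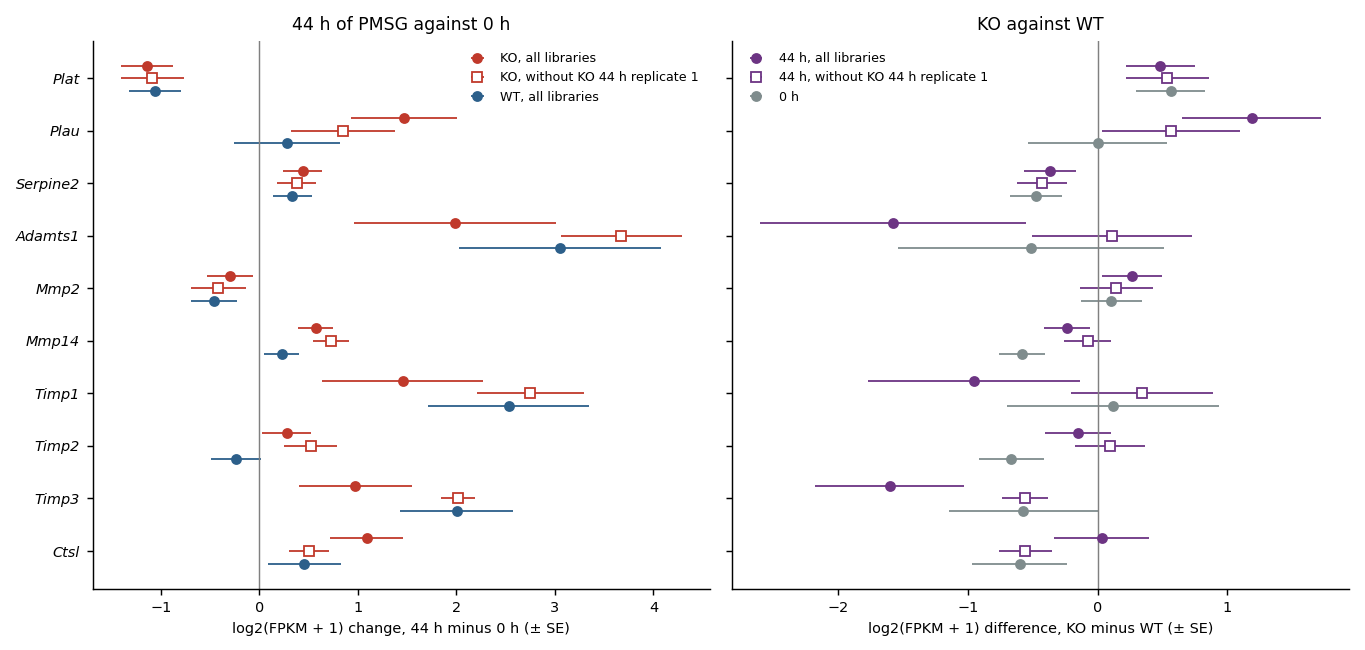
Left, change in log2(FPKM + 1) from 0 h to 44 h in KO (red) and WT (blue); right, difference between KO and WT at 44 h (purple) and 0 h (grey); bars are the SE of the limma fit, and open squares leave out KO replicate 1 at 44 h. For Adamts1, Timp1 and Timp3 the KO change without that library is 3.68, 2.75 and 2.02, beside 3.05, 2.53 and 2.0 in WT.

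Markers of other tissues differed between the treated libraries. Of 7 oviduct and ciliated markers 6 were in the table, and their summed FPKM was 8.36 and 327 in KO and 379 and 12.9 in WT at 44 h, beside 73.2 and 15 in KO and 6.96 and 17.1 in WT at 0 h. Adamts1 and Timp1 were highest in WT replicate 1 and KO replicate 2 at 44 h, where this sum was highest too. Most of the sum there was 1 gene, Ovgp1, at 366 FPKM in WT replicate 1 and 280 FPKM in KO replicate 2. Ovgp1 was also most of the sum in KO replicate 1 at 0 h, at 61.2 FPKM. In WT replicate 2 at 44 h the marker sum was within the untreated range, and Adamts1 was 21.2 FPKM, Timp1 103 FPKM and Timp3 45.3 FPKM, each above both untreated WT libraries. In KO replicate 1 at 0 h the markers summed to 73.2 FPKM, and none of the 3 genes stood out from its replicate. The 10 surface epithelium markers summed to 145 and 459 FPKM in KO and 235 and 238 FPKM in WT at 44 h, beside 157 and 124 FPKM in KO and 183 and 153 FPKM in WT at 0 h. Endothelial markers summed to 13.3 and 45.2 FPKM in KO and 28.4 and 36.2 FPKM in WT at 44 h, beside 22.8 and 16.8 FPKM in KO and 12.2 and 16 FPKM in WT at 0 h. A sum need not hold for each marker. Pecam1, an endothelial one, was 3.72 and 7.09 FPKM in KO and 4.16 and 4.92 FPKM in WT at 44 h. At 0 h Pecam1 was 10.6 and 7.9 FPKM in KO and 4.4 and 6.8 FPKM in WT. For the surface epithelium and endothelial sums, both WT libraries and KO replicate 2 at 44 h were above all untreated libraries and KO replicate 1 was not. The same held for Adamts1 and Timp3, while Timp1 in KO replicate 1 was slightly above the untreated libraries. The theca and stroma sums given with Mmp2 were higher in all 4 treated libraries than in any untreated one, and KO replicate 1 had the lowest treated sum. The oocyte sums given with Plat ran the other way, and KO replicate 1 had the highest of the treated libraries. The 12 granulosa markers summed to 29960 and 23760 FPKM in KO and 17530 and 20860 FPKM in WT at 44 h. At 0 h they summed to 15060 and 15220 FPKM in KO and 15070 and 13120 FPKM in WT. Ctsl and Plau were also highest in KO replicate 1 at 44 h, and their r with this sum was 0.688 and 0.753. At 0 h the KO replicates differed in immune (1128 and 206.7 FPKM) and erythroid sums (951.5 and 107.7 FPKM), as did WT in the latter (686.1 and 98.89 FPKM). All markers of these lists in the table were above 0 in every library, and their part in the results was not tested.

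**Figure D4:**
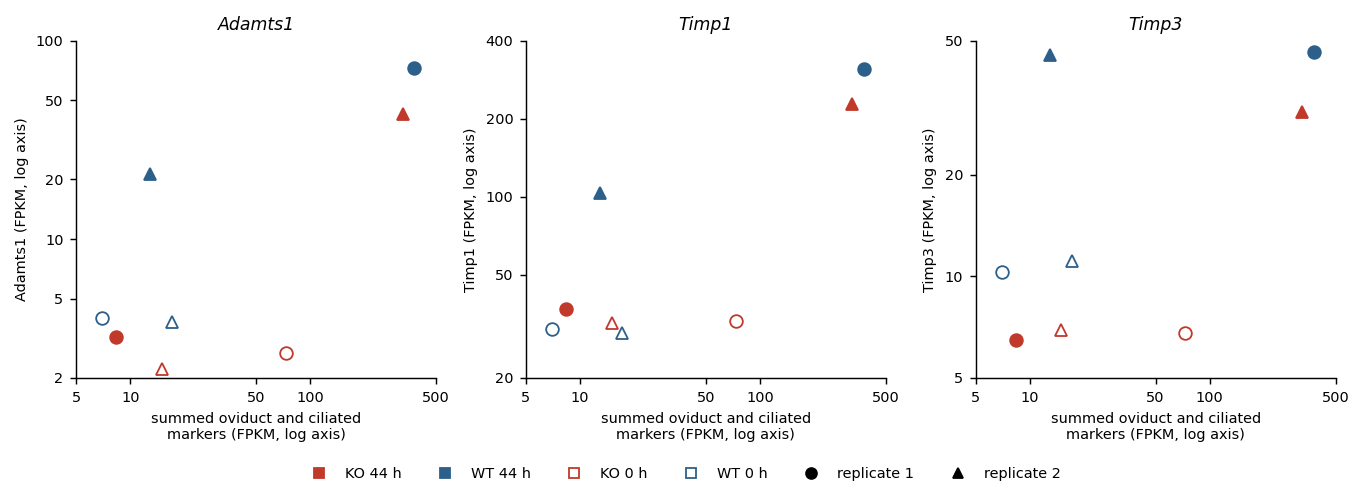
FPKM of Adamts1, Timp1 and Timp3 (vertical, log axis) against the summed FPKM of 6 oviduct and ciliated markers (horizontal, log axis) in each library; filled symbols are 44 h and open symbols 0 h, red KO and blue WT, circles replicate 1 and triangles replicate 2. WT replicate 2 at 44 h has a marker sum of 12.9 FPKM and lies above all untreated libraries for each gene. Ovgp1 alone holds 366 FPKM of the sum in WT replicate 1 and 280 FPKM in KO replicate 2 at 44 h.

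By a fixed rule, the genes most like these 3 across the 8 libraries were taken from 8034 other genes with a mean of at least 5 FPKM. Nearest to Adamts1 were Wisp2 (Pearson r 0.99), a secreted CCN family protein, Dusp3 (0.986), a protein phosphatase, and Cttn (0.984), an actin-binding protein. Wisp2 was 0.303 and 37.2 FPKM in KO and 32.6 and 9.72 FPKM in WT at 44 h, and below 1 FPKM in all untreated libraries. Nearest to Timp1 were Hdc (0.988), which makes histamine, Tmem71 (0.986) and Far1 (0.986), a fatty acyl-CoA reductase. Timp3 was most like Homer3 (0.995), Necap2 (0.994) and Acly (0.993), the enzyme that supplies cytosolic acetyl-CoA. Acly was 45.8 and 172 FPKM in KO and 232 and 187 FPKM in WT at 44 h, against 45.4 and 51 FPKM in KO and 73.1 and 70.3 FPKM in WT at 0 h.

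Timp2, the adaptor in pro-MMP2 activation, did not share the pattern of the other TIMPs. It was 8.72 and 12.6 FPKM in KO and 12 and 11.5 FPKM in WT at 44 h, beside 10.1 and 7.17 FPKM in KO and 16.1 and 12.3 FPKM in WT at 0 h. Untreated KO libraries were below untreated WT libraries (-0.67, SE 0.252, limma adjusted p = 0.474), and at 44 h the genotypes overlapped (-0.15, SE 0.252, adjusted p = 0.845, or 0.09 without KO replicate 1, SE 0.268, adjusted p = 0.96). The log2 change was 0.28 in KO (SE 0.252, adjusted p = 0.56), 0.52 without KO replicate 1 (SE 0.268, adjusted p = 0.254), and -0.24 in WT (SE 0.252, adjusted p = 0.593). Mmp2 thus stood at 136% and 78.3% of the Timp2 FPKM in KO and 74.5% and 75.8% in WT at 44 h, beside 154% and 165% in KO and 64.3% and 123% in WT at 0 h. The 3 TIMPs together came to 52.1 and 271 FPKM in KO and 370 and 160 FPKM in WT at 44 h, beside 50.1 and 46.8 FPKM in KO and 57.2 and 53 FPKM in WT at 0 h. Timp1 made up between 53.8% and 84.2% of that sum in every library.

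Ctsl ranked between 8 and 68 among all genes. It was 3481 and 1536 FPKM at 44 h and 1242 and 951 FPKM at 0 h in KO, and 2209 and 2317 FPKM at 44 h and 1612 and 1684 FPKM at 0 h in WT. Here the library labelled KO replicate 1 at 44 h was the highest of the 8, above Serpine2 in the same library, whereas KO replicate 2 was below both untreated WT libraries. Treated against untreated, the log2 change was 1.09 in KO (SE 0.368, limma adjusted p = 0.166), 0.50 without KO replicate 1 (SE 0.203, adjusted p = 0.163), and 1.68 without KO replicate 2, where it was called with KO replicate 1 as the only KO library at 44 h (SE 0.205, adjusted p = 0.0464, beside 0.237% of all genes called). In WT it was 0.46 (SE 0.368, adjusted p = 0.478). The genotypes overlapped at 44 h (0.03, SE 0.368, adjusted p = 0.985), with a difference of -0.56 without KO replicate 1 (SE 0.203, adjusted p = 0.633), and at 0 h KO lay below WT with no overlap (-0.60, SE 0.368, adjusted p = 0.689). In the annotation used, Ctsl exons overlap an antisense transcript and a processed pseudogene, so reads may be shared.

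Over the 10 genes, the median log2 difference between KO and WT was -0.19 at 44 h and -0.49 at 0 h, beside 0.05 and 0.03 over all genes tested. At 0 h, 6 members lay lower in KO with no overlap, where 19.1% of all genes did, and 1 (Timp1) lay higher, where 27.3% did. The oocyte marker sums differed between the same libraries, at 6743 and 5859 FPKM in KO and 2377 and 4067 FPKM in WT, and their part in this was not tested. Untreated KO libraries of Plat, Plau and Mmp2 overlapped with WT. At 44 h, 3 members were lower without overlap (Serpine2, Mmp14 and Timp3, beside 15.1% of all genes) and 3 higher (Plat, Plau and Mmp2, beside 23.9%). Without KO replicate 1 at 44 h the median at 44 h was 0.10. The median change from 0 h to 44 h was 0.77 in KO and 0.31 in WT, beside -0.11 and -0.13 over all genes, and without KO replicate 1 it was 0.63 in KO. Higher at 44 h with no overlap were 6 members in KO, beside 14.3% of all genes, and 6 in WT, beside 22.5%. Lower with no overlap were 1 in KO, beside 34.1% of all genes, and 3 in WT, beside 40.6%. The median difference between the genotypes in that change was 0.13 over the members and -0.01 over all genes. Limma called 0 members in this difference, also without KO replicate 1, where 0.0735% of all genes were called (0 at an unadjusted p under 0.05 in either fit). Without KO replicate 2, with the library that stands apart as the only KO library at 44 h, it called Timp3 (-2.07, SE 0.238, adjusted p = 0.0242, beside 0.578% of all genes). In that fit KO was lower than WT at 44 h for Adamts1 (-3.27, adjusted p = 0.0359) and Timp3 (-2.65, adjusted p = 0.00276), beside 6.21% of all genes called.

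Other proteases, inhibitors and substrates were read from 8 lists with 141 genes, 140 of them in the table and 85 tested. The lists were chosen with earlier results of these data known. Their shares beside those of all genes are thus a description and no test of the lists. With all libraries limma called 1 of these 85 higher at 44 h in WT, the cystatin Cst8 (log2 4.26, adjusted p = 0.00951), and 1 higher in KO at 0 h, the protease inhibitor Fetub (1.90, adjusted p = 0.0223). It called 0 in the other comparisons. An unadjusted p under 0.05 was reached by 21 for 44 h against 0 h in KO, 25 in WT, 8 for KO against WT at 44 h, 12 at 0 h and 3 for the difference in the PMSG change, beside 21.1%, 24.1%, 9.79%, 9.69% and 1.82% of all genes. Without KO replicate 1 at 44 h, 84 were tested, and 14 were called higher and 6 lower at 44 h in KO (23.8%, beside 8.99% of all genes), with 1 library for KO at 44 h. In WT 15 were called higher and 4 lower (22.6%, beside 10%). None was called between the genotypes at 44 h in that fit, where 0.0441% of all genes were called.

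In the following, a log2 value in brackets after WT values at both times is the WT change to 44 h, and one after KO and WT values at 1 time is the difference of KO against WT at that time. In the plasminogen list (9 tested, 5 with a log2 change above 0 in WT, as had 38% of all genes), Lrp1, the endocytic receptor that clears activator-inhibitor complexes, was 10.3 and 5.42 FPKM at 44 h and 16.3 and 13.8 FPKM at 0 h in KO. In WT it was 5.33 and 6.18 FPKM at 44 h and 12 and 15 FPKM at 0 h (log2 change -1.10, limma adjusted p = 0.11). S100a10, a plasminogen-binding partner of annexin A2, was 112 and 377 FPKM at 44 h and 152 and 95.8 FPKM at 0 h in KO, and 467 and 368 FPKM at 44 h and 128 and 153 FPKM at 0 h in WT (1.56, adjusted p = 0.144). Cpb2, a carboxypeptidase that limits plasminogen binding to fibrin, was 4.62 and 2.05 FPKM in KO and 1.04 and 1.42 FPKM in WT at 44 h (0.90, adjusted p = 0.497, or 0.46 without KO replicate 1). It was 7.06 and 8.11 FPKM in KO and 2.43 and 3.9 FPKM in WT at 0 h. Without KO replicate 1, which leaves 1 library for KO at 44 h, the log2 change of Lrp1 was -1.32 in KO and -1.10 in WT. That of S100a10 was 1.64 in KO and 1.56 in WT, and that of Cpb2 was -1.49 in KO. Anxa2, the gene of annexin A2 and outside the rule for named genes, changed by 2.27 in KO and 1.61 in WT.

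In the metalloproteinase list (24 in the table, 9 tested), Timp4, a further metalloproteinase inhibitor, had its lowest value in KO replicate 1 at 44 h. It was 0.393 and 33.2 FPKM at 44 h and 2.88 and 2.26 FPKM at 0 h in KO, and 25 and 32.9 FPKM at 44 h and 1.16 and 2.84 FPKM at 0 h in WT (log2 change 3.37, limma adjusted p = 0.171). Once that library was left out, limma called Timp4 higher in KO (3.26, adjusted p = 0.00766) and WT (3.37, adjusted p = 0.00287). Mmp11, a stromelysin, was 35.9 and 51.8 FPKM in KO and 90.1 and 91.6 FPKM in WT at 44 h (-1.06, adjusted p = 0.497), beside 167 and 80.4 FPKM in KO and 153 and 259 FPKM in WT at 0 h. Bsg, a surface glycoprotein known to induce metalloproteinases, was 586 and 792 FPKM in KO and 785 and 1042 FPKM in WT at 44 h (-0.41, adjusted p = 0.562, or -0.19 without KO replicate 1).

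Of 11 tested ADAMTS and ADAMTS-like genes, 4 had a log2 change above 0 and 7 below 0 at 44 h in each genotype, against 39.3% of all genes above 0 in KO and 38% in WT. Adamts19 was 4.02 and 2.66 FPKM at 44 h and 9.11 and 10.2 FPKM at 0 h in KO, and 3.33 and 3.88 FPKM at 44 h and 7.25 and 8.44 FPKM at 0 h in WT. Its log2 change was -1.31 in KO (limma adjusted p = 0.0846) and -0.94 in WT (adjusted p = 0.104). The Adamtsl2 values were 2.56 and 0.773 FPKM at 44 h and 4.62 and 6.43 FPKM at 0 h in KO, and 0.409 and 0.81 FPKM at 44 h and 3.02 and 6.53 FPKM at 0 h in WT (-1.78, adjusted p = 0.104). Adamtsl4 was below 0.2 FPKM in all untreated libraries, 0.109 and 1.06 FPKM in KO at 44 h and 2.36 and 2.09 FPKM in WT at 44 h (WT change 1.62, adjusted p = 0.0838). In the fit without KO replicate 1, where KO at 44 h is 1 library, the log2 change of Adamts19 was -1.54 in KO and -0.94 in WT. That of Adamtsl2 was -1.87 in KO and -1.78 in WT, and that of Adamtsl4 was 1.62 in WT. Adamts2, which is outside the rule for named genes, changed by -2.43 in KO and -1.77 in WT.

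Of 17 tested cathepsin and cystatin genes, 14 had a log2 change above 0 at 44 h in each genotype, against 39.3% of all genes in KO and 38% in WT. Cst8 was 72.2 and 117 FPKM at 44 h and 21.6 and 17.5 FPKM at 0 h in KO, and 212 and 395 FPKM at 44 h and 13.1 and 15.4 FPKM at 0 h in WT. At 44 h both KO libraries lay below both WT libraries (log2 difference -1.65, limma adjusted p = 0.457). Cstb, an intracellular cystatin that inhibits cathepsin L, was 267 and 365 FPKM at 44 h and 195 and 172 FPKM at 0 h in KO, and 403 and 316 FPKM at 44 h and 206 and 165 FPKM at 0 h in WT. Its log2 change was 0.76 in KO (limma adjusted p = 0.136) and 0.95 in WT (adjusted p = 0.103). Ctsh, a cathepsin with aminopeptidase activity, was 112 and 154 FPKM in KO and 73.6 and 86.2 FPKM in WT at 44 h (0.72, adjusted p = 0.494), beside 118 and 92.1 FPKM in KO and 59.9 and 72.5 FPKM in WT at 0 h. Its KO libraries were above both WT libraries at each time.

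Among other secreted proteases Prss35, a serine protease-like protein described in the mouse ovary, was near its untreated level in KO replicate 1 at 44 h. It was 17.2 and 204 FPKM at 44 h and 17.3 and 7.2 FPKM at 0 h in KO, and 440 and 339 FPKM at 44 h and 20.6 and 19.7 FPKM at 0 h in WT (4.20, limma adjusted p = 0.104). Without KO replicate 1 at 44 h, limma called it higher in KO (4.06, adjusted p = 0.0061) and in WT (4.20, adjusted p = 0.00197). Htra3 was higher at 44 h in all libraries, KO replicate 1 included, at 27 and 15.7 FPKM in KO against 7.29 and 6.83 FPKM at 0 h, and 29.7 and 21.7 FPKM in WT against 8.73 and 5.68 FPKM at 0 h (1.42 in KO and 1.71 in WT, adjusted p = 0.106 and 0.0818). Bmp1, a procollagen-processing protease, was 7.81 and 14.5 FPKM in KO and 17.8 and 16.5 FPKM in WT at 44 h (-0.63, adjusted p = 0.529, or -0.23 without KO replicate 1).

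The substrates of these enzymes included Vcan, the versican cleaved by ADAMTS1. Vcan was 7.55 and 16.8 FPKM at 44 h and 6.15 and 4.7 FPKM at 0 h in KO, and 19.3 and 13.2 FPKM at 44 h and 4.98 and 4.47 FPKM at 0 h in WT (1.57, limma adjusted p = 0.102). Sdc1, a cell-surface proteoglycan, was 95.7 and 498 FPKM at 44 h and 151 and 138 FPKM at 0 h in KO, and 547 and 339 FPKM at 44 h and 119 and 155 FPKM at 0 h in WT (1.66, adjusted p = 0.195). With KO replicate 1 at 44 h left out, limma called Vcan and Sdc1 higher in KO (1.48 and 1.78, adjusted p = 0.0305 and 0.0212) and in WT (1.57 and 1.66, adjusted p = 0.0147 and 0.0144).

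Among other inhibitors (15 tested, 11 with a log2 difference above 0 for KO against WT at 44 h, as had 55.5% of all genes), Fetub was 115 and 113 FPKM in KO and 46 and 45.6 FPKM in WT at 44 h (1.29, limma adjusted p = 0.239), beside 94 and 78.4 FPKM in KO and 19.7 and 25 FPKM in WT at 0 h. Ahsg, the related fetuin-A, was 9.49 and 8.6 FPKM in KO and 6 and 4.65 FPKM in WT at 44 h (0.67, adjusted p = 0.544), beside 6.94 and 3.01 FPKM in KO and 0.972 and 0.881 FPKM in WT at 0 h (1.55, adjusted p = 0.271). Slpi, a leukocyte protease inhibitor, was 4.96 and 15.4 FPKM in KO and 3.7 and 3.42 FPKM in WT at 44 h (1.12, adjusted p = 0.544, or 1.85 without KO replicate 1). Of the 5 tested ADAM sheddases all 5 had a log2 difference below 0 for KO against WT at 0 h, where 54.6% of all genes were above 0, and none was called. The named ones were Adam9, Adam10, Adam15 and Adam17, of which Adam10, a sheddase of many surface proteins, was 52.9 and 58.5 FPKM in KO and 73.8 and 72.3 FPKM in WT at 0 h (-0.39, adjusted p = 0.557).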

How the data were processed

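RNA-seq of 8 granulosa cell libraries was analysed from 1 table of FPKM values that the authors deposited, with a column per library, per the file headers. Listed per the submitters' processing notes are the tools TopHat2 2.1.1 and Cufflinks 2.2.1 and the build mm9, whose roles are not spelled out. How genes were annotated or filtered before deposit is not stated in these sources. FPKM are not counts, so no count model was used, and absolute depth is unknown. Values were taken as log2(FPKM + 1), which understates changes of low genes, and a gene was tested where 2 or more libraries reached 1 FPKM. Using limma 3.58.1 (R 4.3.3), group means were fitted over the 8 libraries, leaving 4 residual degrees of freedom, with variances moderated along a trend on mean level. Two-sided p-values were corrected over the whole table by the Benjamini-Hochberg method in each of 5 comparisons, and a call needed an adjusted p under 0.05. The fit was tested on simulated data. The members and lists were chosen with earlier results of these data known. Named genes were the 10 members, called list members in the fit of all libraries and, per list, the 2 with the smallest p for 44 h against 0 h in WT and the 2 for KO against WT at 44 h. For likeness the rule took the 3 members of widest range and the 3 genes of highest r to each. Promoter windows came from RefSeq (GRCm38.p6), in which 7 of 10 members matched, and overlapping genes from GENCODE M21. Alternatives covered the pseudocount, filter, scaling, replicate block, groups in the fit, robust empirical Bayes and each library left out.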

Additional observations from a re-analysis of the deposited data

How the results depend on the processing

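Counts of called members, 0 in each comparison with all libraries, changed only with the groups in the fit or a library left out. Called in 44 h against 0 h in WT were 3 members with only the WT groups, and 0 to 3 with a library left out (3 without either KO library at 44 h). The range was 0 to 3 in KO (3 without KO replicate 1 at 44 h, 1 without replicate 2), 0 to 2 for KO against WT at 44 h and 0 to 1 for the difference in the PMSG change (both highest without KO replicate 2 at 44 h), and 0 for KO against WT at 0 h. Of 835 values of members under the alternatives, 797 kept their direction and side of the threshold, 16 became called and 22 changed sign. With a library left out, the log2 difference of KO against WT at 44 h ranged from -3.27 to 0.113 for Adamts1, -2.25 to 0.342 for Timp1, -0.393 to 0.0934 for Timp2 and -0.558 to 0.622 for Ctsl. At 0 h it ranged from -0.144 to 0.355 for Mmp2 and -0.457 to 0.457 for Plau. The change to 44 h ranged from -0.07 to 2.02 for Timp3 in KO and -0.267 to 0.833 for Plau in WT. The difference in the PMSG change ranged from -2.76 to 0.626 for Adamts1, -2.37 to 0.222 for Timp1, -2.07 to 0.0119 for Timp3, -0.0884 to 0.41 for Mmp2 and -0.467 to 0.307 for Plat. The positive ends of Adamts1, Timp1, Timp2 and Timp3 in these ranges came without KO replicate 1 at 44 h. Ctsl at 44 h was -0.0305 after median-of-ratios scaling, and Plau at 0 h was -0.0482 with a pseudocount of 0.1, -0.168 after quantile normalization and -0.0536 after median-of-ratios scaling. The cause was not tested.

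Over the whole table, calls in 44 h against 0 h numbered 19 in KO (6 with a replicate block, 35 with robust empirical Bayes, 1223 without KO replicate 1 at 44 h) and 11 in WT (7, 34 and 1367), and 945 in WT with only the WT groups. For KO against WT at 44 h they numbered 3, and 838 without KO replicate 2 at 44 h. Median-of-ratios scaling moved the median of all genes at 44 h against 0 h to 0.03 in KO and -0.01 in WT, as against -0.11 and -0.13 as deposited. Replicate numbers are shared only as numbers, with correlations of -0.113 to -0.00684 between deviations of same-numbered libraries, and a replicate block left 0 members called in each of the 5 comparisons. Plau had no value under the stricter filter of 5 FPKM, which only 1 library reached. With 2 libraries a group, the difference in the PMSG change carried an SE of up to 1.45 (Adamts1).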
